A study of Homo sapiens with 8 samples.

Results

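The genes described here build the extracellular matrix or bind it. They are 35 of the 56638 entries in each of 3 deposited comparison tables, chosen by symbol: collagens, laminins, fibronectin, fibrillins, matricellular proteins, proteoglycans, crosslinkers, a matrix serpin and integrins. RNA was sequenced from A375, a single human malignant melanoma cell line, in 4 groups of 2 libraries. Every group had been transfected with Lipofectamine 2000, 24 h after seeding in medium with 10% serum, and was harvested 48 h later. The vector group received empty pcDNA3.1 (-). The other groups received the same plasmid with an insert: SLNCR1, a long noncoding RNA, in full, only its conserved region (conserved), or the RNA lacking that region (delta conserved). The constructs addressed which expression changes depend on which portion of SLNCR1. Whether the 2 libraries of each group derive from independent cultures is not given by the labels. The p-values therefore reflect only how much these samples vary, and that variation may be technical.

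Cells anchor to a meshwork of secreted proteins. Fibrillar collagens give it tensile strength, collagen IV and laminins form the basement membrane sheet, fibronectin links collagen to integrins, and matricellular proteins tune adhesion without bearing load. Melanoma cells secrete many of these proteins themselves, and fibronectin, SPARC and tenascin C are associated with invasive melanoma.

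Total reads assigned to genes ranged from 8222868 to 12015394 per library. Single libraries are not columns of the deposited tables. Their whole reads were solved for from the group means, and the deeper library of each group is called a and the other b. Values per library below are normalized read counts, meaning reads divided by a size factor common to all genes of that library. The leading principal component over all genes tested (41.3% of the variance) placed the vector and conserved libraries at -20.3 to -14.1, and those with SLNCR1 or delta conserved at 14.2 to 27.0. On the next component the b library of SLNCR1 was separate from the rest at the upper end (24.0 against at most 4.9). The b library of delta conserved lay at the lower end (-18.1), with the a library of delta conserved next (-9.4). LINC00511 was taken here as the entry through which the transfected RNA is read, and whether it covers each insert was not tested. LINC00511 exceeded vector in the authors' deposited tables with SLNCR1 (log2 0.49, adjusted p = 0.00559) and conserved (log2 0.80, adjusted p = 5.89e-15). Its difference with delta conserved did not pass in the authors' deposited table (0.69, adjusted p = 0.145) and passed by limma (0.68, adjusted p = 0.000297). The melanoma lineage factor SOX10 was measured at 2919 to 3678 normalized counts and MITF at 536 to 786, whereas the pigment enzyme TYR reached at most 1.77 and the pigment protein MLANA 17.6. Markers of other cell types were read as lists, as sums of normalized counts. The 6 keratinocyte markers summed to 646 to 690 in vector, 708 to 768 with SLNCR1, 667 to 735 with conserved and 719 to 774 with delta conserved, mostly KRT10 and KRT14, with DSG3 at 0. The 5 endothelial markers summed to 33.5 to 53.1 over the 8 libraries, with PECAM1 at 0. The leukocyte markers PTPRC, CD3E, CD14 and ITGAM summed to 80.3 to 94.9 in vector, 20.8 to 26.0 with SLNCR1, 121 to 131 with conserved and 22.1 to 31.4 with delta conserved. The last of these followed ITGAM (5.52 to 113), and PTPRC and CD3E reached at most 2.21. The part of these markers in the results below was not tested.

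No matrix gene had a mean under 10 normalized counts. Levels were divided by the length of all annotated exons of a gene, merged over its transcripts. That length can exceed the length of a single transcript, so the order of genes depends on the annotation too. COL4A2, with 19.3 kb of exon, stood at 301 normalized counts per kb in vector cells. On this scale the highest levels in vector cells were those of the laminin chains LAMC1 (751 normalized counts per kb), LAMB1 (698) and LAMA5 (685), followed by SPARC (650.4), THBS1 (632) and COL6A1 (625). The A375 cells thus carried RNA for an alpha, a beta and a gamma laminin chain. The lowest were COL3A1 (0.554), COL1A2 (0.954), FBN2 (1.97), LOX (2.8) and POSTN (3.93). Of the chains that assemble into type I collagen, COL1A1 stood at 19.4 normalized counts per kb and COL1A2 at 0.954.

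Against vector, delta conserved was the construct with which matrix genes changed by the authors' test. At an adjusted p under 0.05 in the authors' deposited table, 11 of 35 genes rose and 0 fell, where 1.11% of all entries tested rose and 1.14% fell. With SLNCR1 0 of 35 rose and 0 fell by that test (background 0.0388% and 0.844%), although 5 had an unadjusted p under 0.05, all higher (2.64% of all entries). With conserved 0 rose and 0 fell (background 0.0175% and 0.0%), and 1, higher, had an unadjusted p under 0.05 (0.725% of all entries). The median log2 difference of the 35 genes in the authors' deposited tables was 0.20 with delta conserved, 0.10 with SLNCR1 and 0.04 with conserved. The comparisons share the vector libraries.

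The recovered libraries were tested with limma, a linear model that pools the spread over all 8 libraries and moderates it across 16058 genes. COL3A1 entered that fit only through libraries in which it was high, and is left out of the limma counts here. COL1A2 also reached the mean of 10 that the fit required only through its high libraries. It is kept in these counts and in those between constructs below, where its part is a description. It passed no adjusted limma test against vector with all 8 libraries. By limma with Benjamini-Hochberg adjustment, 13 of the 34 other matrix genes rose with delta conserved and 0 fell (background 5.19% and 5.26%), 3 rose with SLNCR1 and 0 fell (background 3.94% and 7.41%), and 0 rose or fell with conserved (background 0.00623% and 0.0%). With conserved 1 was higher at an unadjusted limma p under 0.05, as were 2.99% of all genes. These limma counts depended on single libraries, as did the share of all genes called in either direction. With delta conserved 1 gene was called without delta conserved b (2.01% of all genes), 2 without vector a (1.73%), 5 without delta conserved a (4.52%) and 14, 13 higher and 1 lower, without vector b (7.95%). With SLNCR1 the count was 0 without vector a (2.0% of all genes), 1, lower, without SLNCR1 b (4.72%), 6 without vector b (9.37%) and 9, 5 higher and 4 lower, without SLNCR1 a (26.9%). Among all genes, these fits called more genes lower than higher, except with delta conserved without vector b. With delta conserved, 24 of the 34 lay above both vector libraries in both of theirs and 2 lay below (background 27.7% and 26.0%). With SLNCR1 these counts were 15 and 2 (background 27.2% and 25.4%), and with conserved 10 and 3 (background 25.0% and 16.7%). In bulk RNA, fewer cells that express a gene and less RNA per cell cannot be told apart.

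**Figure D1:**
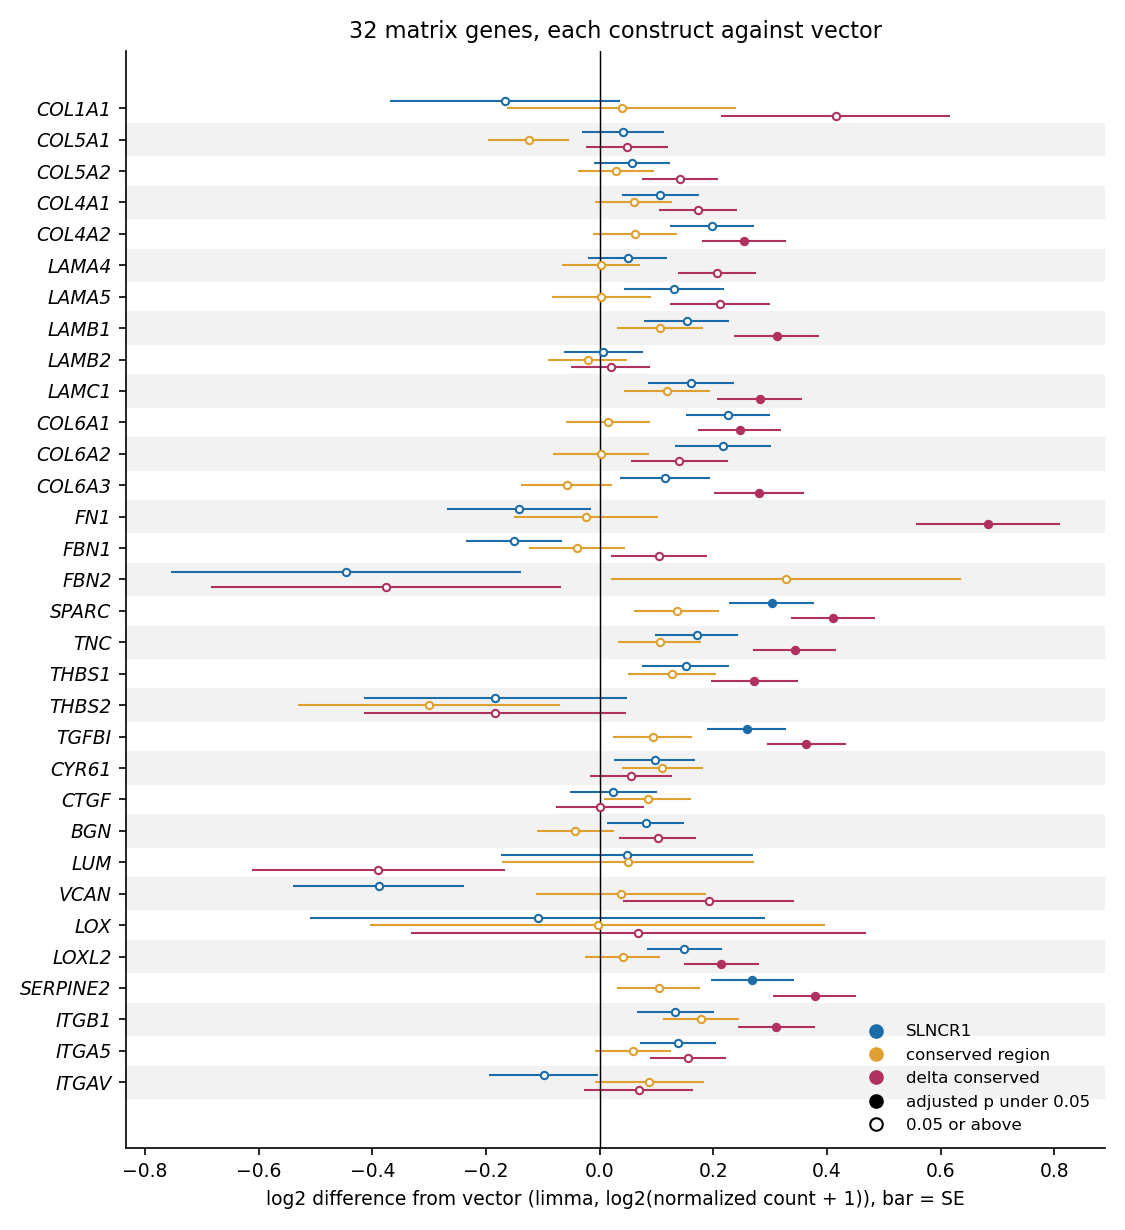
Log2 difference from vector (x axis, limma fit on log2(normalized count + 1), bars are SE) for 32 of the 35 matrix genes, with 1 point per construct; COL3A1, COL1A2 and POSTN lie beyond this scale and are left out. Filled points have a limma adjusted p under 0.05: with delta conserved most filled points lie between 0.21 and 0.41 and FN1 lies at 0.68, with SLNCR1 SPARC, TGFBI and SERPINE2 are filled, and with conserved none is.

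Expression level moved with this result. Across all 16058 genes, the median limma log2 difference of delta conserved from vector was -0.11 at means of 10 to 30 normalized counts, 0.09 at 1000 to 3000 and 0.19 at 3000 to 20000. The matrix genes are mostly abundant: 24 of 35 had a mean of at least 1000 and 12 of at least 3000. Among genes with a mean of at least 3000, 32.0% of 319 rose in the authors' deposited table and so did 7 of the 12 matrix genes, whose median log2 was 0.26 against 0.19 for all 319. By limma at that level, 8 of the 12 rose with delta conserved (38.2% of all 319 genes) and 2 of the 12 with SLNCR1 (20.4%). By limma among genes with a mean of at least 1000, 12 of the 24 rose with delta conserved (17.7% of all 3395 genes) and 3 with SLNCR1 (11.9%). Among genes with a mean of at least 1000, 9.66% of 3395 rose in the authors' deposited table, and 10 of the 24 matrix genes did. Set against all genes of the same range of means, 8 of the 34 matrix genes other than COL3A1 lay above the 95th percentile of the limma log2 difference (COL1A1, COL1A2, COL6A3, FN1, SPARC, TGFBI, SERPINE2 and ITGB1), 1 lay below the 5th (POSTN) and 25 lay between. COL1A2 reached a mean of 10 only through its high libraries, so its place above that percentile is a description. COL4A2, LAMB1, LAMC1, COL6A1 and TNC, which passed the authors' test, lay within the range of equally abundant genes. These ranges were set after the data were seen, and the part of expression level in the calls was not tested.

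**Figure D2:**
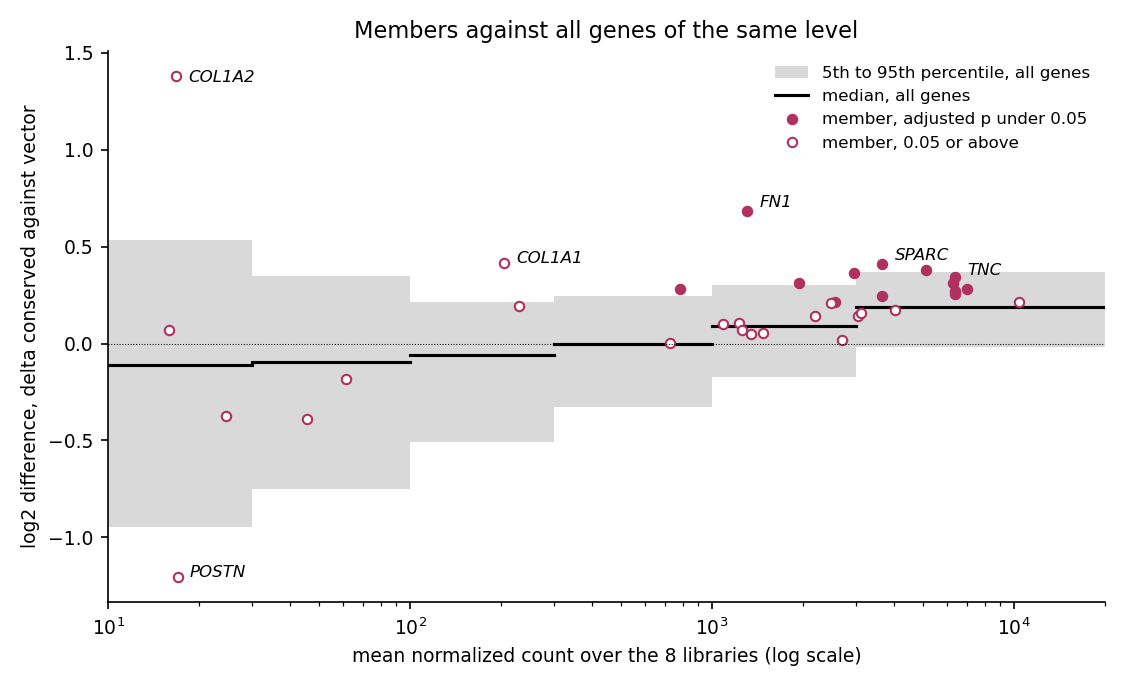
Limma log2 difference of delta conserved from vector (y axis) against mean normalized count over the 8 libraries (x axis, log scale). Grey bands span the 5th to 95th percentile of all genes in each range of means and black lines their median, which rises from -0.11 to 0.19; points are 34 of the 35 matrix genes, filled where the limma adjusted p is under 0.05, with COL3A1 left out.

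The fibrillar collagens form the ropes of interstitial matrix. COL3A1, the chain of type III collagen, gave 4.02 and 3.53 normalized counts in vector libraries a and b, 4 and 4.38 with SLNCR1, 53.1 and 1.99 with conserved, and 50.8 and 45.1 with delta conserved. Both delta conserved libraries and conserved library a were high, the other 5 libraries were low, and the conserved libraries spanned the whole range. The reads behind these values were 5 and 4 in vector, 60 and 2 with conserved and 46 and 36 with delta conserved, so the gene entered the limma fit through its 3 high libraries and had to differ there. Its limma values are therefore a description and support nothing. COL3A1 rose with delta conserved by a log2 of 3.66 in the authors' deposited table (12.7-fold, adjusted p = 2.61e-09). The limma difference was 3.36 ± 0.80 (SE). With conserved the authors' deposited table gave 2.85 (adjusted p = 1). Without conserved library b the limma difference with conserved was 3.5, and without library a it was -0.67.

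COL1A2, the second chain of type I collagen, showed the same libraries at its top. It gave 8.04 and 13.2 normalized counts in vector, 0.999 and 11 with SLNCR1, 37.2 and 5.96 with conserved, and 30.9 and 26.3 with delta conserved. COL1A1, the main chain of type I collagen, gave 175 and 206 in vector, 172 and 166 with SLNCR1, 274 and 138 with conserved, and 246 and 259.6 with delta conserved. For both genes the delta conserved libraries exceeded both vector libraries, and the conserved libraries lay on either side of vector. The delta conserved differences in the authors' deposited table were log2 1.43 for COL1A2 (adjusted p = 0.123) and 0.41 for COL1A1 (adjusted p = 0.184), and neither passed. Fibroblasts are a major source of these collagens, and the 9 fibroblast markers read, COL1A1, COL3A1, LUM and POSTN among them, summed to 812 to 813 normalized counts in vector, 742 to 776 with SLNCR1, 719 to 880 with conserved and 826 to 847 with delta conserved. PDGFRB, a receptor that other mesenchymal cells also carry, made up much of the sum at 426 to 495. DCN (decorin) gave 12.9 and 9.70 in vector, 9.99 and 11 with SLNCR1, 10.6 and 3.97 with conserved, and 15.5 and 13.8 with delta conserved. PDGFRA gave 18.5 and 12.4 in vector, 31.0 and 19.7 with SLNCR1, 22.1 and 12.9 with conserved, and 14.4 and 23.8 with delta conserved. Both were lower in conserved library b than in library a, as COL1A1, COL1A2 and COL3A1 were. The markers PDGFRB, LUM, THY1, FAP and POSTN were instead higher in library b (FAP 13.3 and 20.9 in conserved a and b). The 5 fibroblast markers that are not matrix genes here summed to 487 in conserved a and 502 in conserved b. The part of these markers in the collagen differences was not tested.

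The remaining fibrillar collagens, COL5A1 and COL5A2, nucleate and regulate fibril width. COL5A1 ranged from 1222 to 1468 normalized counts and COL5A2 from 2905 to 3229, and neither passed a test in any comparison. Their delta conserved differences in the authors' deposited table were 0.04 and 0.14.

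**Figure D3:**
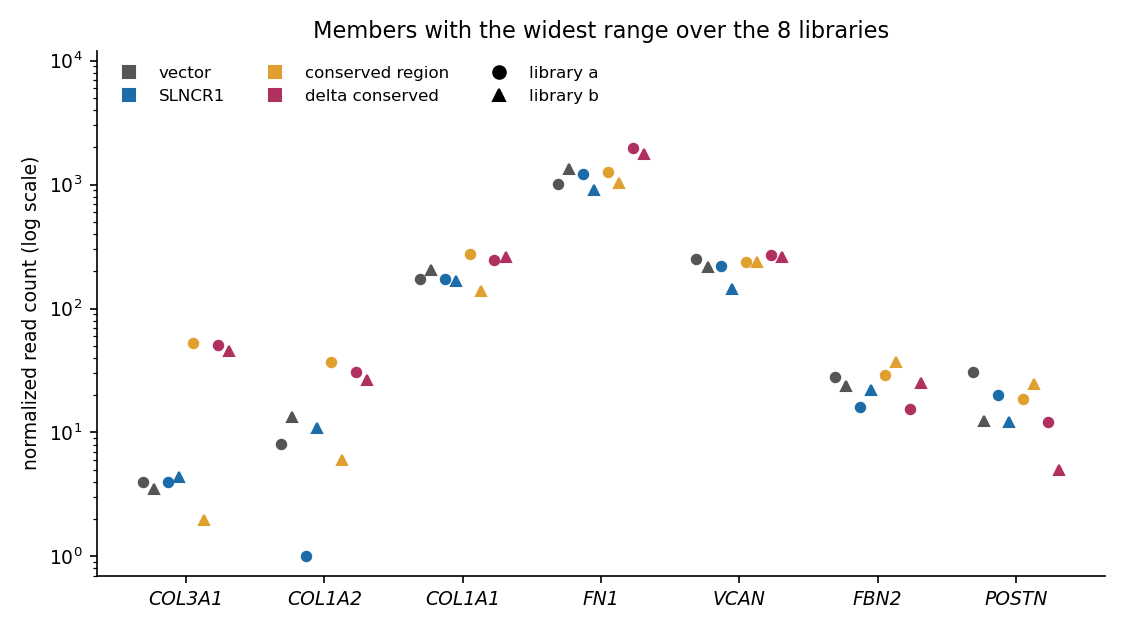
Normalized read count (y axis, log scale) in each of the 8 libraries for 7 matrix genes; colours are the groups, circles library a and triangles library b. COL3A1 and COL1A2 are high in both delta conserved libraries and in conserved library a (53.1 and 37.2) and not in conserved library b (1.99 and 5.96), and FN1 is highest in both delta conserved libraries (1977 and 1751).

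Collagen IV and the laminins make up the basement membrane. COL4A1 and COL4A2 encode the partner chains of the collagen IV trimer and are transcribed away from each other from start sites that lie 127 bases apart, so their promoter windows share 226 bases. The windows are shown because these neighbours can be compared from the same stretch of DNA. They run from 250 bases before to 50 after each RefSeq start, on the gene's own strand, at chr13:110307034-110307333 (COL4A2, plus strand) and chr13:110307108-110307407 (COL4A1, minus strand) of GRCh38.p14. Capitals mark CCAAT on either strand.
COL4A2: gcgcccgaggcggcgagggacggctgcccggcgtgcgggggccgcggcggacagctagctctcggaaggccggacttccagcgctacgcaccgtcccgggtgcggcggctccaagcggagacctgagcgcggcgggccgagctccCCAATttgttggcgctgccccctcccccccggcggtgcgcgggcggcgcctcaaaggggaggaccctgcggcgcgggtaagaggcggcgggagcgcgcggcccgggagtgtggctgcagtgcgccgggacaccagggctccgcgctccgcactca
COL4A1: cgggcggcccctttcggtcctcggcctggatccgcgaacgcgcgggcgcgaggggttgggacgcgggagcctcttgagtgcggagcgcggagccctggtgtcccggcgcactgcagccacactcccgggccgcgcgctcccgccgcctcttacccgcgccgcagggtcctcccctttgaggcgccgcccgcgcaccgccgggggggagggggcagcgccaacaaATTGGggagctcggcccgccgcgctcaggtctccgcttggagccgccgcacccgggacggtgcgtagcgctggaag

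COL4A2 gave 5565 and 6061 normalized counts in vector, 6559 and 6769 with SLNCR1, 5881 and 6252 with conserved, and 6801 and 7055 with delta conserved. Both delta conserved libraries and both SLNCR1 libraries lay above vector. COL4A2 rose with delta conserved by a log2 of 0.25 in the authors' deposited table (adjusted p = 0.0115). COL4A1 ranged from 3645 in vector library a to 4276 in delta conserved library b, and its difference of 0.17 in the authors' deposited table did not pass (adjusted p = 0.265).

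Laminins are cross-shaped trimers of an alpha, a beta and a gamma chain. LAMB1, the beta 1 chain, gave 5382 and 5974 normalized counts in vector, 6366 and 6243 with SLNCR1, 5886 and 6332 with conserved, and 6941 and 7133 with delta conserved. LAMC1, the gamma 1 chain, gave 6103 and 6523 in vector, 7365 and 6752 with SLNCR1, 6683 and 7016 with conserved, and 7553 and 7785 with delta conserved. For both chains the delta conserved libraries were the highest of all 8 and all SLNCR1 libraries exceeded vector. With delta conserved, the authors' deposited table had LAMB1 rise by 0.31 (adjusted p = 0.00243) and LAMC1 by 0.28 (adjusted p = 0.00299), and neither passed with SLNCR1 or conserved. LAMB1 overlaps DLD (mean 1332 normalized counts) on the opposite strand in the GENCODE annotation, and the library kit does not mark strand.

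The alpha chains did not pass. LAMA4 gave 2364 and 2358 normalized counts in vector against 2756 and 2694 with delta conserved (log2 0.20 in the authors' deposited table, adjusted p = 0.142), groups that do not overlap. LAMA5 gave 8956 and 10628 in vector and 11529 and 11072 with delta conserved, which the authors' deposited table gives as a log2 of 0.20 (adjusted p = 0.816). Its conserved mean was 9785 normalized counts, where the division between the libraries has more than 1 solution, and the gene overlaps ADRM1 on the opposite strand. LAMB2, the beta 2 chain, gave 2534 and 2843 in vector and 2778 and 2666 with delta conserved. Of the 7 basement membrane genes, 3 thus rose with delta conserved by the authors' test (1.11% of all entries), and all 7 had a log2 difference above 0 in that deposited table. All 7 had a mean of at least 1000, where 9.66% of all genes rose there and 74.7% had a log2 difference above 0. Among all genes with a mean of at least 3000 these shares were 32.0% and 92.5%.

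Collagen VI forms beaded filaments next to the basement membrane. COL6A1 gave 3190.2 and 3492 normalized counts in vector, 3739 and 4074 with SLNCR1, 3239 and 3511 with conserved, and 3938 and 3980.4 with delta conserved. COL6A3 gave 741 and 729 in vector, 859.5 and 737 with SLNCR1, 694 and 717 with conserved, and 925 and 862 with delta conserved. COL6A1 was high with both SLNCR1 and delta conserved, while COL6A3 was highest with delta conserved and lowest with conserved. COL6A1 rose with delta conserved by 0.24 in the authors' deposited table (adjusted p = 0.0267), and COL6A3, at 0.28, passed by limma alone (0.28 ± 0.08 SE, adjusted p = 0.032, against 0.1001 in the authors' deposited table). COL6A3 did not pass with trimmed-mean scaling or without the filter on low values. COL6A2 ranged from 1905 to 2587 and passed in no comparison.

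Fibronectin is the adhesive glycoprotein that integrins pull into fibrils, and fibrillins form the microfibrils of elastic tissue. The FN1 promoter window is shown because FN1 had the largest called difference among matrix genes with a mean of at least 1000, and the CTGF window below because CTGF stayed near its vector level. The FN1 window lies at chr2:215436019-215436318 (minus strand, GRCh38.p14), with the cyclic AMP response element TGACGTCA and the CCAAT box in capitals.
FN1: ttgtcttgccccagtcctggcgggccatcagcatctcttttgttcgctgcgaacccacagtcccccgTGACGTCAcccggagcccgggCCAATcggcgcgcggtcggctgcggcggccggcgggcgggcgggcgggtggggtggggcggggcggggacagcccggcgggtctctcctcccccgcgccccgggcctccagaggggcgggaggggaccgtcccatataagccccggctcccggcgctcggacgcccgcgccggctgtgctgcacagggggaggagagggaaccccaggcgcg

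FN1 gave 1010.1 and 1327 normalized counts in vector, 1207 and 911 with SLNCR1, 1252 and 1037 with conserved, and 1977 and 1751 with delta conserved. The delta conserved libraries stood above the other 6, which overlapped one another. FN1 rose with delta conserved by a log2 of 0.67 (1.59-fold) in the authors' deposited table (adjusted p = 0.0178), and by 0.68 ± 0.13 (SE) by limma (adjusted p = 0.00298, at most 0.0943 without any 1 library). With SLNCR1 the authors' deposited table gave -0.14 (adjusted p = 1). FBN1 ranged from 995 in SLNCR1 library b to 1338 in delta conserved library b and passed in no comparison.

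Matricellular proteins are secreted into the matrix and regulate how cells attach to it. SPARC, which binds collagen and loosens adhesion, gave 3004 and 3280.1 normalized counts in vector, 3739 and 4009 with SLNCR1, 3305 and 3598 with conserved, and 4043 and 4308 with delta conserved. TGFBI, an adhesion protein induced by TGF-beta, gave 2482 and 2729.6 in vector, 3056 and 3173 with SLNCR1, 2689 and 2868 with conserved, and 3350.2 and 3347 with delta conserved. For both genes the order of the groups was vector, conserved, SLNCR1, delta conserved, and for SPARC all 6 construct libraries lay above both vector libraries. SPARC rose with delta conserved by 0.41 in the authors' deposited table (adjusted p = 4.12e-05) and TGFBI by 0.36 (adjusted p = 0.000123). With SLNCR1 the limma differences were 0.30 ± 0.07 (SE) for SPARC (adjusted p = 0.0171) and 0.26 ± 0.07 for TGFBI (adjusted p = 0.0267), whereas the authors' deposited table gave adjusted p-values of 0.127 and 0.34. Without single libraries the limma adjusted p with SLNCR1 reached 0.176 for SPARC and 0.235 for TGFBI.

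TNC, the adhesion-modulating glycoprotein tenascin C, gave 5531 and 5879 normalized counts in vector, 6595 and 6251 with SLNCR1, 5945 and 6331 with conserved, and 7159 and 7315 with delta conserved. THBS1, thrombospondin 1, gave 5563 and 6011 in vector, 6650.4 and 6205 with SLNCR1, 6179 and 6455 with conserved, and 6685 and 7297 with delta conserved. Both genes were above vector in all 6 construct libraries. TNC rose with delta conserved by 0.34 in the authors' deposited table (adjusted p = 6.75e-05), and THBS1, at 0.27 (adjusted p = 0.0815), passed by limma alone (0.27 ± 0.08 SE, adjusted p = 0.0305). THBS1 did not pass with trimmed-mean scaling or without the filter on low values.

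CYR61 and CTGF, now named CCN1 and CCN2, are matricellular genes known as targets of the YAP and TEAD transcription factors. CYR61 ranged from 1324 to 1547 normalized counts and CTGF from 671 to 756, and neither passed in any comparison. With delta conserved the authors' deposited table gave log2 differences of 0.05 for CYR61 and -0.0037 for CTGF. The promoter windows of CTGF (chr6:131951323-131951622, minus strand, GRCh38.p14) and SPARC (chr5:151686866-151687165, minus strand) both hold GGAATG, the TEAD motif, on one or the other strand. It is in capitals, as is the TATAAA of CTGF.
CTGF: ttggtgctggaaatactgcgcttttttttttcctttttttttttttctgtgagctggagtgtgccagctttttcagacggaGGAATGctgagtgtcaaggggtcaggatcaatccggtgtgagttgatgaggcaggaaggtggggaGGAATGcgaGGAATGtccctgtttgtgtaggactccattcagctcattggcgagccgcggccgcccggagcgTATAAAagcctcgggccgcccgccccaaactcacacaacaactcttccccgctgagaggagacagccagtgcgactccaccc
SPARC: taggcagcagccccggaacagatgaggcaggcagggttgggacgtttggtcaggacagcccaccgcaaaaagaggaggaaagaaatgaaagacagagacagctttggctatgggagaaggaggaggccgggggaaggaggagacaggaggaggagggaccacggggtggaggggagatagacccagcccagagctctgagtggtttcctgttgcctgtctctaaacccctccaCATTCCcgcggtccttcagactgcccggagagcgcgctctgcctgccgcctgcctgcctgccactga

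Promoter windows from RefSeq were found for 27 of the 35 genes, 9 of them among the 11 that rose with delta conserved, and were searched on both strands. GGAATG was found in 7 of the 27 and in 2 of the 9, against 14.0% of 35116 windows of the same length. CCAAT was found in 9 and 4 (34.6% of all windows), the GC box GGGCGG in 20 and 8 (45.0%), TATAAA in 5 and 1 (11.5%), TGACGTCA in 1 and 1 (1.85%) and the AP-1 motif TGANTCA in 2 and 0 (7.71%). A match describes the letters in these windows and is not a measurement of binding.

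The remaining roles are crosslinking, protease control and adhesion. SERPINE2, a secreted serine protease inhibitor that binds matrix, gave 4405 and 4562 normalized counts in vector, 5279 and 5523 with SLNCR1, 4605 and 5037 with conserved, and 5634 and 6025 with delta conserved. LOXL2, an enzyme that crosslinks collagen, gave 2323 and 2449.9 in vector, 2654 and 2635 with SLNCR1, 2371 and 2538 with conserved, and 2768 and 2766 with delta conserved. Every SLNCR1 and delta conserved library was above vector for both genes. SERPINE2 rose with delta conserved by 0.38 in the authors' deposited table (adjusted p = 1.04e-05) and, by limma alone, with SLNCR1 (0.27 ± 0.07 SE, adjusted p = 0.0281, up to 0.166 without single libraries). LOXL2 passed with delta conserved by limma alone (0.21 ± 0.07 SE, adjusted p = 0.0466, against 0.115 in the authors' deposited table), and not with trimmed-mean scaling or without the filter on low values. LOXL2 overlaps ENTPD4 (mean 944 normalized counts) on the same strand.

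ITGB1, the beta 1 integrin chain that pairs with most matrix-binding alpha chains, gave 1701 and 1764 normalized counts in vector, 1969.9 and 1833 with SLNCR1, 1921 and 1999.9 with conserved, and 2091 and 2209.7 with delta conserved. All 6 construct libraries lay above vector. ITGB1 rose with delta conserved by 0.31 in the authors' deposited table (adjusted p = 0.00706), and with conserved the difference there was 0.16 (adjusted p = 1, unadjusted p = 0.0219). ITGA5, the fibronectin receptor alpha chain, ranged from 2879 to 3361 and ITGAV from 1009 to 1364, and neither passed in any comparison.

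**Figure D4:**
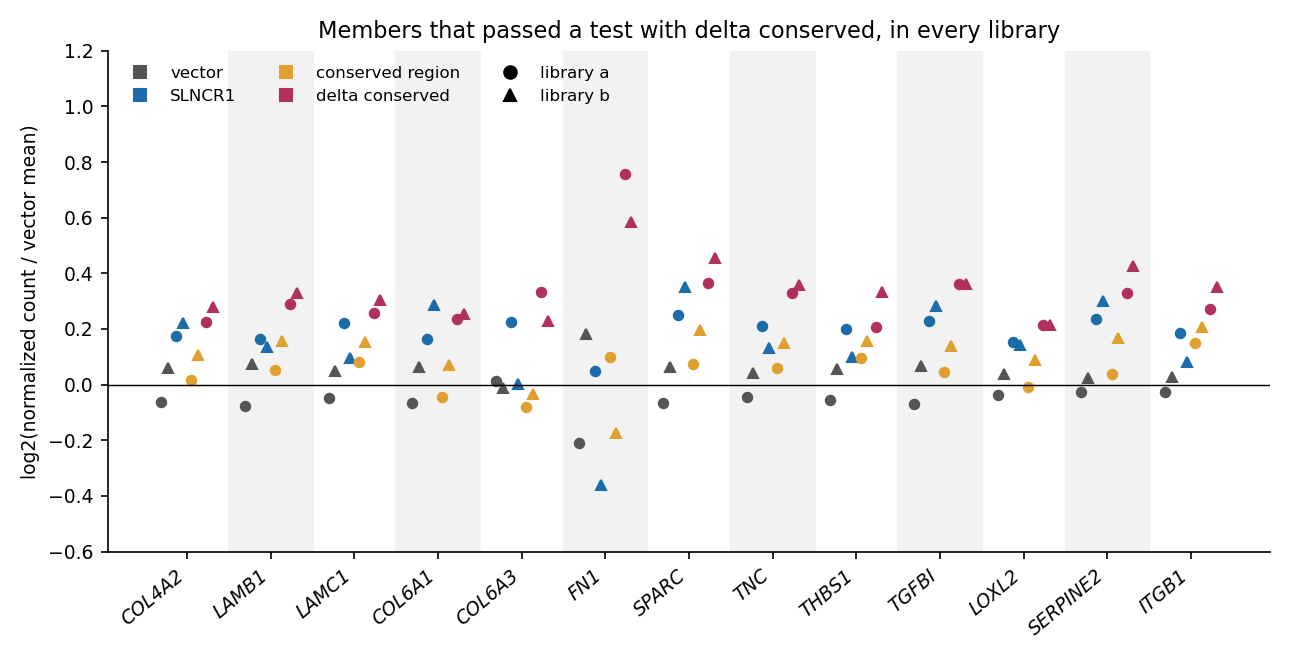
Log2 ratio of each library's normalized count to the vector mean (y axis) for the 13 matrix genes, other than COL3A1, that passed the authors' test or limma with delta conserved; colours are the groups, circles library a and triangles library b. Both delta conserved libraries lie above both vector libraries for all 13, and FN1 with SLNCR1 and conserved overlaps vector.

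Among the proteoglycans, BGN (biglycan) ranged from 1012 to 1161 normalized counts. VCAN (versican) gave 250.1 and 215 in vector, 219.9 and 142 with SLNCR1, 237 and 239 with conserved, and 269.6 and 261 with delta conserved, and its lowest value was that of SLNCR1 library b. Neither passed in any comparison. The genes with a mean under 100 normalized counts were COL1A2, COL3A1, FBN2, THBS2, POSTN, LUM and LOX. POSTN (periostin) gave 30.6 and 12.4 in vector, 20 and 12.1 with SLNCR1, 18.6 and 24.8 with conserved, and 12.2 and 5.02 with delta conserved. FBN2 gave 28.1 and 23.8 in vector, 16 and 21.9 with SLNCR1, 29.2 and 36.7 with conserved, and 15.5 and 25.1 with delta conserved. For both, the delta conserved libraries lay below both conserved libraries. POSTN was lower with delta conserved by a log2 of -1.33 in the authors' deposited table, where it did not pass (adjusted p = 1). THBS2 ranged from 48.6 to 81.2, the proteoglycan LUM (lumican) from 30.1 to 51.6 and the crosslinking enzyme LOX from 9.93 to 23.9, and none of these passed in any comparison. At these counts only large differences were detectable: in the limma fit the SE of the delta conserved difference was 0.40 for LOX and 0.45 for POSTN, against 0.07 for SPARC.

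The constructs were compared with each other by limma, since the deposited tables hold comparisons with vector alone. Conserved was lower than delta conserved for 5 of the 34 genes other than COL3A1 and higher for 0 (background 1.11% lower and 5.79% higher). These were FN1 (-0.71 ± 0.13 SE, adjusted p = 0.00164), COL6A3 (-0.34 ± 0.08, adjusted p = 0.0131), TGFBI (-0.27 ± 0.07, adjusted p = 0.0231), SERPINE2 (-0.27 ± 0.07, adjusted p = 0.0284) and SPARC (-0.28 ± 0.07, adjusted p = 0.0302). For all 5 both conserved libraries lay below both delta conserved libraries. The count was 0 without delta conserved a (2.96% of all genes called in either direction), 1 without conserved b (2.66%), 2 without delta conserved b (3.60%) and 2 without conserved a (2.69%). In the fits without 1 library, most calls among all genes were higher, so these shares exceed the share called lower. When the fit held only these groups the count was 20, of which 19 were lower and 1 higher. Among all 16041 genes, 1333 were lower and 1930 higher there. Abundant genes tended lower too: with a mean of at least 1000, 32.9% of 3395 genes had a log2 difference above 0, as had 2 of the 24 matrix genes. The part of expression level in these calls was not tested.

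SLNCR1 against delta conserved gave 0 calls in either direction, as it did among all genes tested (background 0.0% each way). Abundant genes tended lower here as well: with a mean of at least 1000, 34.0% of 3395 genes had a log2 difference above 0, as had 2 of the 24 matrix genes. At an unadjusted p under 0.05, limma had 8 of the 34 genes other than COL3A1 lower and 0 higher with SLNCR1, where 5.4% of all genes were lower and 2.58% higher. FN1 had the lowest p of these (-0.83 ± 0.13 SE, adjusted p = 0.0707), and both SLNCR1 libraries lay below both delta conserved libraries, 1207 and 911 against 1977 and 1751. COL1A2 reached a mean of 10 only through its high libraries, those of delta conserved among them, and had 1 read in SLNCR1 library a. Its part in the counts of this paragraph, also those without 1 library, is a description and supports nothing. Without SLNCR1 library b, FN1 and COL1A2 were called lower by limma (0.0124% of all genes called in either direction), and without library a 6 of the 34 were (7.63%). SLNCR1 against conserved gave 0 calls (background 2.06% higher and 9.47% lower), and an unadjusted limma p under 0.05 was reached by 7 of the 34 as higher and 3 as lower, where 10.4% of all genes were higher and 16.7% lower. The 0 adjusted limma calls became 6 without SLNCR1 a (25.0% of all genes), 3 without SLNCR1 b (7.12%) and 2 without conserved b (4.97%).

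A wider list of 117 other matrix genes was read in the same tables. With delta conserved 14 rose and 2 fell by the authors' test, where 1.11% of all entries rose and 1.14% fell. Of the 41 listed genes with a mean of at least 1000, 11 rose, against 9.66% of all genes at that level. The collagen-processing enzymes contributed 6 of 20 (4 of the 12 with a mean of at least 1000), among them the collagen prolyl hydroxylase subunits P4HA2 (0.33, adjusted p = 0.0357) and P4HA1 (0.32, adjusted p = 0.023) in the authors' deposited table. Other integrins and matrix receptors contributed 6 of 20, led by the hyaluronan receptor CD44 (0.32, adjusted p = 0.000568) in the authors' deposited table, and the proteoglycan GPC6 rose by 0.35 (adjusted p = 0.0229) there. These 6 receptors all had vector means above 1000 there, and 9.66% of all genes with a mean of at least 1000 rose.

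The genes that fell were collagens. COL17A1, a transmembrane collagen of hemidesmosomes, gave 172 and 166 normalized counts in vector, 80 and 82.2 with SLNCR1, 166 and 142 with conserved, and 69.6 and 74 with delta conserved. COL5A3, a further collagen V chain, gave 139 and 146 in vector, 52 and 68 with SLNCR1, 138 and 129 with conserved, and 72.9 and 53.9 with delta conserved. Conserved stayed near vector for both, and all SLNCR1 and delta conserved libraries lay below every vector and conserved library. In the authors' deposited tables COL17A1 fell by 1.06 with SLNCR1 (adjusted p = 0.000181) and by 1.24 with delta conserved (adjusted p = 1.61e-06), and COL5A3 fell by 1.25 (adjusted p = 2.97e-05) and by 1.17 (adjusted p = 7.15e-05). NOV, a relative of CTGF, was the 1 gene of the wider list that rose with SLNCR1 by the authors' test (0.50 in their deposited table, adjusted p = 0.0338), and with conserved 0 of the 117 rose or fell. By limma, conserved was above delta conserved for COL17A1 (1.09 ± 0.14 SE, adjusted p = 9.1e-05) and COL5A3 (1.08 ± 0.18, adjusted p = 0.000853).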

How the data were processed

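The 8 poly(A)-selected libraries came, per the labels' protocols, from the unstranded NEBNext Ultra kit. Per the submitters' processing notes, STAR, featureCounts, DESeq and hg19 were used; versions and annotation: not given in the sources used here. Each deposited table gives, per the file headers and values, the authors' signal (mean over a group of reads divided by size factors), its ratio of construct to vector (fold change; log2 was taken here), and the authors' p-value and adjusted p-value. The authors normalized each table on its own.

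A group mean is a sum of whole multiples of 1 step per library, which gave whole reads per library: the solution was unique for 99.9806% of expressed genes with conserved (6 had several) and for 100% in each other group. On simulated means, all single solutions were correct. Replicate numbers cannot be matched to these libraries.

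Reads were scaled by median-of-ratios size factors over the 8 libraries. limma 3.58.1 (R 4.3.3; trend; 4 residual and 13.6 prior degrees of freedom) was fitted to log2(normalized count + 1), keeping the 16058 genes whose mean was 10 or more, which understates changes of low genes, with Benjamini-Hochberg adjustment. Tested on simulated counts for delta conserved against vector (16064 genes), it found 60% of the genes set to change 1.3-fold, 72% of those at 1.5-fold and 96% of those at 4-fold, and 12 of its 165 calls were false. Main calls against vector use the authors' adjusted p under 0.05; comparisons between constructs use limma. Alternatives were other scalings, pseudocounts, filters, fits and left-out libraries.

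The 35 genes, their roles, the wider list and the markers were chosen with earlier results of these data known. Values in every library are given for genes that passed anywhere and for the 6 with the largest differences, of the wider list for up to 6 passing per comparison; VCAN, LAMA4, LAMA5 and LAMB2 were added after their values were seen. Sequences are from RefSeq (GRCh38.p14), a different build from the files; overlaps are from GENCODE release 29. Other steps ran in Python 3.11.15 (pandas 2.3.3, numpy 2.4.6; plots with matplotlib 3.10.9).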

Additional observations from a re-analysis of the deposited data

How the results depend on the processing

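No paired analysis was possible because the deposited columns carry no replicate numbers and the recovered libraries cannot be matched to them. The authors' test could not be rerun without single libraries. At an authors' adjusted p under 0.1 the counts of matrix genes were 12 with delta conserved and 0 with SLNCR1 and conserved. The count with SLNCR1 was 0 by the authors' test and 3 by limma.

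Counts here are over all 35 genes. By limma, the 3 calls with SLNCR1 became 5 with scaling by library totals, 0 without the filter on low values and 0 when the fit held only the groups compared. The 14 calls with delta conserved, counting COL3A1, became 9 with trimmed-mean scaling, 12 with library totals, 8 without the filter and 18 (17 higher, POSTN lower) in the fit of only those groups. Between SLNCR1 and delta conserved, 0 became 2 in the fit of only those groups. Between conserved and delta conserved, 5 became 9 with library totals, 1 without the filter and 21 in the fit of only those groups. Between SLNCR1 and conserved, 0 became 3 with library totals. The cause of these shifts was not tested, except that dropping the filter raises the number of genes tested to 37939.

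Leaving out 1 library at a time, the counts ranged from 0 to 9 for SLNCR1 against vector, 0 to 1 for conserved against vector, 1 to 14 for delta conserved against vector, 0 to 7 for SLNCR1 against delta conserved, 0 to 3 for conserved against delta conserved and 0 to 6 for SLNCR1 against conserved. With 1 library left in a group, that library is assumed to vary like the other groups. Without SLNCR1 a, 5 of the 9 calls against vector were higher and 4 lower, and without SLNCR1 b the 1 call was lower.

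No gene that passed with all 8 libraries in a comparison changed sign there under these settings. COL1A1, COL1A2, COL3A1, FBN1, FN1 and ITGAV, each in comparisons where it passed only under another setting, did, such as COL3A1 with conserved (-0.67 without conserved a, 3.5 and called without conserved b). For single genes, 746 of 840 results without 1 library and 1204 of 1258 under the other settings kept their side of the threshold. Over all genes, 834 rose and 845 fell with delta conserved by limma, against 409 and 1101 with trimmed-mean scaling and 501 and 1157 with library totals, which shift the median log2 of all genes by -0.05 and -0.06. Depth limits the 7 genes with a mean under 100 normalized counts.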

Other observations

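Enzymes and chaperones that process and crosslink collagen formed 1 group of the wider list. By limma, 9 of 19 tested rose with delta conserved and 0 fell (background 5.19% and 5.26%), and 3 rose and 0 fell with SLNCR1 (background 3.94% and 7.41%). Of the 12 with a mean of at least 1000, 7 rose with delta conserved and 2 with SLNCR1, against 17.7% and 11.9% of all genes at that level. In the authors' deposited table the passing ones with delta conserved included the lysyl hydroxylases PLOD1 (0.30, adjusted p = 0.00446) and PLOD2 (0.28, adjusted p = 0.0482), the collagen 3-hydroxylation partner CRTAP (0.28, adjusted p = 0.00777) and the transglutaminase TGM2 (0.27, adjusted p = 0.00787). P4HB (0.30, adjusted p = 0.105) and SERPINH1 (0.24, adjusted p = 0.106), the collagen chaperone, did not pass there and passed by limma. These genes were chosen after their values were seen.

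Between the constructs, limma called 4 of these 19 enzymes lower with conserved than with delta conserved (background 1.11%). Of the 12 with a mean of at least 1000, 2 were called lower and 0 had a log2 difference above 0. Among all 3395 genes at that level, 32.9% had a difference above 0, and the part of expression level was not tested. SPP1, the secreted phosphoprotein osteopontin, gave 462 and 459.6 normalized counts in vector, 545 and 584 with SLNCR1, 403 and 409 with conserved, and 549 and 557 with delta conserved. The conserved libraries were the lowest of the 8, and limma gave 0.47 ± 0.08 (SE, adjusted p = 0.000559) for SLNCR1 against conserved and -0.45 ± 0.08 (adjusted p = 0.00133) for conserved against delta conserved. ITGB7, a beta integrin chain, was higher with SLNCR1 than with conserved by 0.67 ± 0.12 (SE, limma adjusted p = 0.00149).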
